A study of Rattus norvegicus with 23 samples.

Results

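The hearts of Sprague-Dawley rats with most of their kidney tissue removed were compared with the hearts of rats that had sham surgery. The libraries were taken by their labels: 4 heart libraries labelled NX and 3 labelled Sham, which are 7 of the 23 libraries of the study. NX stands for a partial nephrectomy of 5/6 of the kidney tissue, a common way to produce chronic kidney disease in rats. Sham rats had surgery without that removal. All rats were 13 weeks old by the labels, and tissue was collected 4 weeks after surgery. The other heart group, AVF+NX with 4 libraries, had the same nephrectomy together with a fistula joining the jugular vein to the carotid artery. It enters here to help estimate the spread, as a neighbour for single libraries and with a count of its own calls against Sham. No transgene or deletion is named for any group, and the labels do not say which part of the heart was taken. They number the samples as biological replicates.

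Loss of kidney function loads the heart with pressure and volume and exposes it to retained solutes, phosphate and hormones such as angiotensin II, aldosterone and FGF23. A loaded ventricle is known to release natriuretic peptides, to return to fetal forms of its contractile genes, to lay down collagen and to shift its fuel use. Heart muscle also runs its own molecular clock, in which Arntl (BMAL1) and Clock switch on the Per and Cry genes, whose proteins then hold Arntl and Clock back.

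Values are CPM, meaning a gene's reads relative to its library's total after scaling between libraries by TMM. Fold changes are NX over Sham on the log2 scale, with a standard error (SE), from edgeR's quasi-likelihood test, and a gene counts as called at an adjusted p (Benjamini-Hochberg over all 12794 genes tested) below 0.05. Total counts ran from 9894716 to 11866042 in the Sham libraries and were 9605973, 22679092, 18034380 and 10511439 in NX libraries 1 to 4. The heart libraries were set out on principal components, the first of which held 48.3% of the variance. On it the Sham libraries scored 34.2 to 35.8 and NX libraries 1 and 4 scored 28.7 and 25.1. NX libraries 2 and 3 scored -23.9 and -22.3, inside or next to the AVF+NX range of -31.3 to -22. An index over 63 genes for small structured RNAs was 0.79 to 0.84 in the Sham libraries and 1, -1.02, -0.62 and 0.67 in NX libraries 1 to 4. So the NX group holds libraries that stand apart from each other, and in the NX group the total count and the small RNA index move with that split. The part of depth and small RNA content in the results was not tested beyond the fits with each as a covariate.

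**Figure D1:**
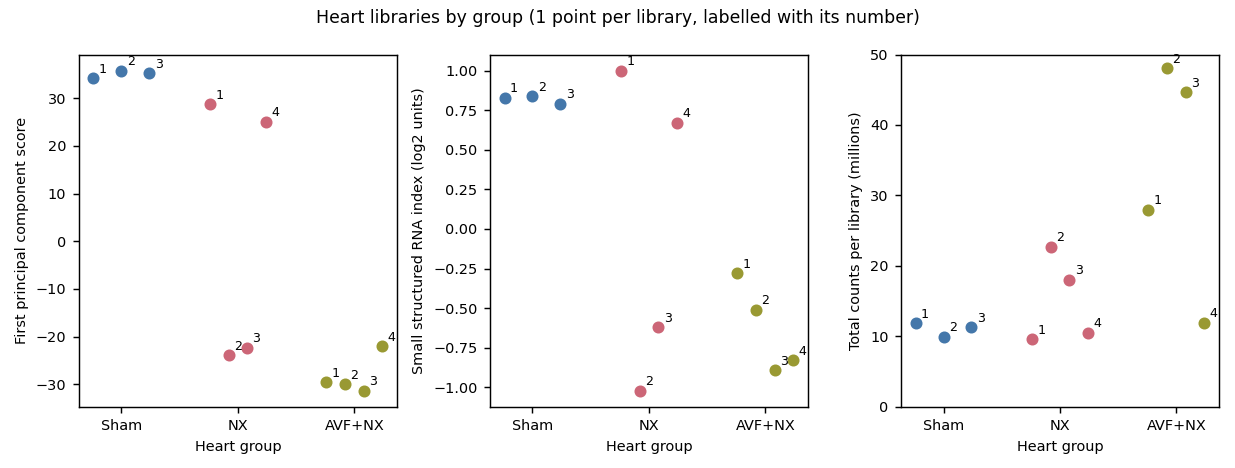
Each point is 1 heart library, with its number beside it; the panels show the score on the first principal component, the small structured RNA index in log2 units and the total counts, by group. NX libraries 1 and 4 lie near the 3 Sham libraries in the first 2 panels, while NX libraries 2 and 3 lie near or among the 4 AVF+NX libraries.

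The tissue matched its label. On a scale corrected for gene length (TPM), Myh6, the main myosin heavy chain of the rat ventricle, averaged 7470 ± 1230 in Sham (SD, n = 3) and 8400 ± 322 in NX (n = 4), and Tnnt2, cardiac troponin T, averaged 9010 ± 452 and 9790 ± 1070. The adipocyte genes Adipoq and Plin1 and the mesothelial gene Msln had at most 3 counts in any of the 7 libraries. Other listed markers were detected. The 8 measured white and brown adipocyte markers summed to 601 to 752 CPM in Sham and to 550 to 706 CPM in NX. The 3 measured epicardial and mesothelial markers summed to 18.1 to 21.3 CPM in Sham and to 18.9 to 22.8 CPM in NX. Myl7, the atrial myosin light chain, was at 66.8 CPM in Sham library 1, at 3.21 and 7.18 CPM in the other Sham libraries and at 4.84 to 14.3 CPM in the NX libraries, so Sham library 1 stood apart for this atrial marker, whose part in the values of Nppa and other atrial genes was not tested.

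No gene was called between NX and Sham hearts. The smallest adjusted p was 0.07, and 2662 genes (20.8%) had an unadjusted p below 0.05, 1211 higher (9.47%) and 1451 lower (11.3%) in NX. All 4 NX libraries lay above all 3 Sham libraries for 885 genes (6.92%) and below them for 1144 genes (8.94%). DESeq2 on the same counts called 344 genes (2.69%), 176 higher (1.38%) and 168 lower (1.31%). The groups did not overlap for 330 of them. DESeq2 gave no adjusted p for 2233 genes, which count in these shares as not called. In comparison, 91 of 12533 genes (0.726%) had an adjusted p below 0.05 in the authors' deposited table. That table too gives no adjusted p for some genes, such as Arc and C3. Leaving out NX library 1 gave 538 edgeR calls (4.13%) and leaving out NX library 4 gave 34 (0.261%), whereas leaving out any other single Sham or NX library gave 0. In the same fit AVF+NX hearts, set against the same Sham libraries, had 4357 calls (34.1%). The AVF+NX libraries also lay apart from Sham on the small RNA index (-0.89 to -0.28 against 0.79 to 0.84). Their total counts were 27988586, 48079431, 44661599 and 11889483 in libraries 1 to 4. The part of these library differences in the 4357 calls was not tested.

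The gene with the smallest p was Ubtd1, which encodes a ubiquitin domain protein (chromosome 1, 261229347 to 261280536, + strand, in the files' coordinates, whose build is not given in the sources used here). It stood at 34.2, 30.0 and 29.7 CPM in the Sham hearts and at 16.8, 13.2, 13.3 and 18.7 CPM in the NX hearts. Every NX value was below every Sham value, and the NX mean was about 51.0% lower (log2 -1.03, SE 0.14, edgeR adjusted p = 0.07). Cox17, the copper chaperone that helps to load cytochrome c oxidase, was at 67.6, 63.0 and 65.0 CPM in Sham and at 45.7, 34.7, 40.5 and 43.4 CPM in NX. Its groups did not overlap either (log2 -0.67, SE 0.10, edgeR adjusted p = 0.0707). Neither passed the threshold with all libraries, and both did in edgeR without NX library 1 (adjusted p = 0.0215 for each) and without NX library 4 (0.0266 for Ubtd1 and 0.0463 for Cox17). With log2 total count as a covariate they were the 2 genes called.

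The other genes of smallest p that averaged lower have varied roles. Fkbp2, a prolyl isomerase of the endoplasmic reticulum, had a log2 fold change of -0.74 (SE 0.13, edgeR adjusted p = 0.118). Kremen1, a receptor for the Wnt inhibitor Dickkopf, was at -0.53 (SE 0.10), and Lbh, a transcription cofactor of the developing heart, at -0.54 (SE 0.10). Phlda3, a p53 target that restrains the kinase Akt, was at -0.79 (SE 0.16), Angptl2, a secreted angiopoietin-like protein, at -0.53 (SE 0.10), and Ppp1r14b, an inhibitor of protein phosphatase 1, at -0.62 (SE 0.12). Srsf9, a splicing factor, Slc7a4, an amino acid transporter homologue, and Fam78a were at -1.01, -1.37 and -0.83 (SE 0.21, 0.25 and 0.17), and for Srsf9 and Slc7a4 no value passed 8.42 CPM. Adjusted p in edgeR was 0.138 for Slc7a4 and 0.141 for the others from Kremen1 to Fam78a.

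Of the genes that averaged higher, the smallest p belonged to Ranbp9 and Rc3h1. Ranbp9, a scaffold of the CTLH ubiquitin ligase (chromosome 17, 24021736 to 24103515, - strand), was at 28.0, 27.1 and 28.3 CPM in Sham and at 40.4, 49.1, 45.1 and 38.6 CPM in NX. The lowest NX value lay well above the highest Sham value, and the fold was 1.56 (log2 0.64, SE 0.10, edgeR adjusted p = 0.0707). Rc3h1 (Roquin-1), which marks messenger RNAs for decay, was at 48.9, 52.5 and 52.9 CPM in Sham and at 71.6, 76.8, 78.3 and 70.2 CPM in NX. Its fold was 1.45 (log2 0.53, SE 0.08, edgeR adjusted p = 0.0707). Smg1, the kinase of nonsense-mediated decay, was at 0.50 (SE 0.10), Rfx7, a transcription factor, at 0.52 (SE 0.10), and Ptpn4, a tyrosine phosphatase, at 0.60 (SE 0.10).

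Slc38a2, a transporter of neutral amino acids, was at 185, 202 and 184 CPM in Sham and at 291, 350, 326 and 265 CPM in NX. Its NX values were all higher (log2 0.69, SE 0.14). Ndrg1, a gene induced by hypoxia and other stress, was at 20.5, 19.0 and 16.9 CPM in Sham and at 31.8, 30.5, 36.9 and 32.2 CPM in NX. Its NX libraries were close to each other and all above Sham (log2 0.80, SE 0.17), as was Tcp11l2 (log2 0.80, SE 0.17). Map1b, a microtubule-associated protein, had a log2 fold change of 0.83 (SE 0.16), Lrrc2 0.73 (SE 0.14), and Dennd4c, an exchange factor for Rab10, 0.50 (SE 0.10). The edgeR adjusted p was 0.118 for Ptpn4 and 0.141 for Smg1, Rfx7, Slc38a2, Ndrg1, Tcp11l2, Map1b, Lrrc2 and Dennd4c. The 12 higher and 12 lower genes with the smallest p were all called by DESeq2 and by edgeR without NX library 1. They were picked by their p in these same libraries, so those calls are no independent support.

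**Figure D2:**
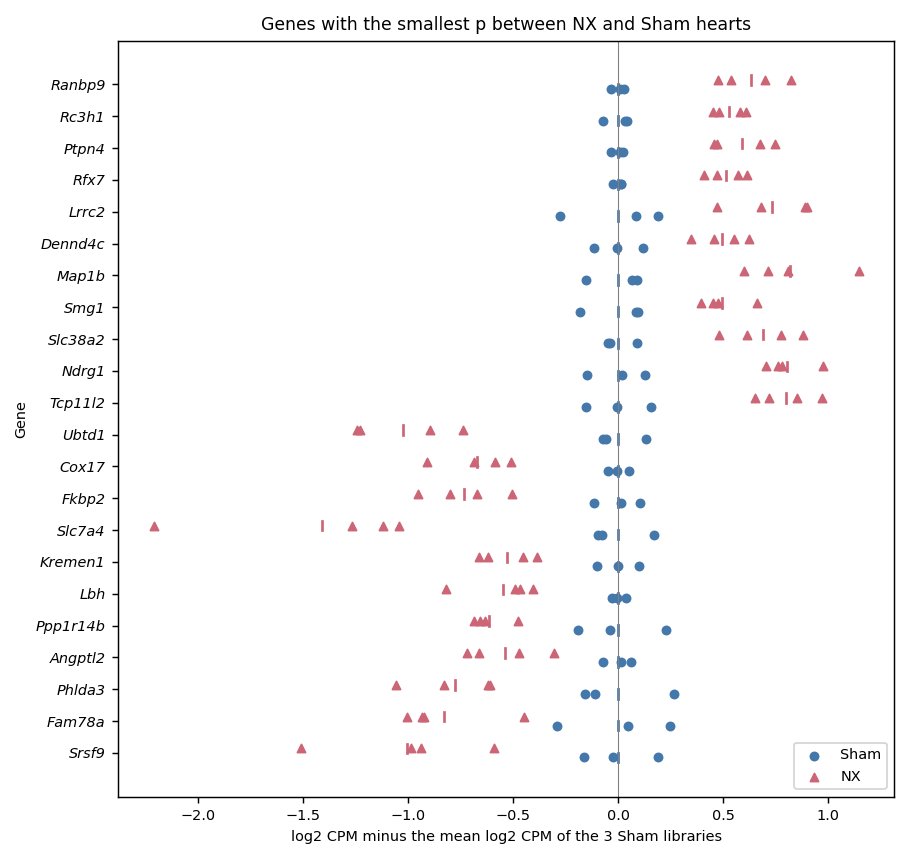
For 11 higher and 11 lower genes among those with the smallest p, each point is a library's log2 CPM minus the mean log2 CPM of the 3 Sham libraries, with circles for Sham, triangles for NX and short bars for group means. In every one of these genes the 4 NX points lie on 1 side of the 3 Sham points, although no gene reached an adjusted p below 0.05.

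Length moved with the direction of the difference. In the fifth of genes with the shortest transcripts (53 to 1395 bases in the files' length column) the median log2 fold change was -0.13, and 3.43% lay wholly above and 13.8% wholly below Sham. In the fifth with the longest (4121 to 29464 bases) the median was 0.11, with 13.6% above and 4.22% below. The 12 higher genes with the smallest p had a median length of 5204.5 bases and the 12 lower ones of 1638.5 bases. Removing the length trend shrank the log2 fold changes of most of these genes. Cox17 went from -0.67 to -0.43, Lbh from -0.54 to -0.31 and Smg1 from 0.50 to 0.30. Those of Ranbp9 (0.64 to 0.68), Lrrc2 (0.73 to 0.74), Tcp11l2 (0.80 to 0.83) and Kremen1 (-0.53 to -0.58) grew. With the length trend removed edgeR called 0 genes, and 2516 had an unadjusted p below 0.05. Ribosomal protein genes, with a median length of 729.5 bases, showed the same side, with a median log2 fold change of -0.18. Of 78 such genes 21 were wholly below Sham (26.9%) and 1 was wholly above (1.28%), against 8.94% and 6.92% of all genes. With the length trend removed the median of nuclear oxidative phosphorylation subunits went from -0.04 to 0.05, that of antioxidant genes from 0.04 to 0.10 and that of hypoxia genes from 0.05 to 0.02, in each case by more than the spread of the NX libraries. The medians of the other lists among the 39 moved by less than that spread.

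Of the clock genes, the activators Arntl and Clock averaged higher and several repressors and output genes averaged lower in NX hearts. The promoters of 4 of them, 250 bases before the start site in RefSeq's GRCr8 build, are shown because the groups did not overlap for these genes and the windows hold sequence motifs known from the clock. Capitals mark a ROR half-site (AGGTCA) in Arntl, a D-box (TTATGTAA or TTACGTAA) in Per2 and an E-box (CACGTG) in Tef and Bhlhe41, each searched on both strands. They lie at chr1:176766078-176766327 (+), chr9:99496994-99497243 (-), chr7:115206577-115206826 (+) and chr4:180569356-180569605 (-).
Arntl: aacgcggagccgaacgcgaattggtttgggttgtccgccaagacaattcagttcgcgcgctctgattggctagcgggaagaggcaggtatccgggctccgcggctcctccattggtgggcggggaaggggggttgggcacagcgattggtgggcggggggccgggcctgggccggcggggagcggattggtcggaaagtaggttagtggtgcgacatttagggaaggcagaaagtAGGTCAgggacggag
Per2: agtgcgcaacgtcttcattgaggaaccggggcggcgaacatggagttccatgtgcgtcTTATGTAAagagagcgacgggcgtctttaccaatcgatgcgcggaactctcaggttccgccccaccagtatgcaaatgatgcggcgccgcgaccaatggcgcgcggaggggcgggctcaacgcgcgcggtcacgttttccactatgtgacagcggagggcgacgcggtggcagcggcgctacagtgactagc
Tef: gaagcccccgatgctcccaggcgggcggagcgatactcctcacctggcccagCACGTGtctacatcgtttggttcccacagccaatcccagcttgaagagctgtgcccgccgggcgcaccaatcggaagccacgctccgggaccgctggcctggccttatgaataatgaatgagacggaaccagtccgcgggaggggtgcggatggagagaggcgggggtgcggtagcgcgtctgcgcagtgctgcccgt
Bhlhe41: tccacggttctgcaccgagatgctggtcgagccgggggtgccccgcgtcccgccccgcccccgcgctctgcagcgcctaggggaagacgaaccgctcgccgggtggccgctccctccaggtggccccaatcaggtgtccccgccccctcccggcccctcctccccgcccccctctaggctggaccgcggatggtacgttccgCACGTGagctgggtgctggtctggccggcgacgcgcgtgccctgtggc
The E-box was in 5 of 24 clock gene promoters found in RefSeq's table and in 5.59% of all 33469 promoters, the D-box in 1 of 24 and in 0.932%, and the ROR half-site in 4 of 24 and in 14.1%. A match is a run of letters in this window and does not show that a factor binds there.

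Arntl was at 7.17, 1.14 and 2.04 CPM in Sham and at 45.6, 18.7, 34.2 and 10.0 CPM in NX. The lowest NX library was above the highest Sham library, but values within each group spread widely, and the fold of 7.55 had an edgeR adjusted p of 0.176 (log2 2.92, SE 0.93). Without Sham library 1, the highest of the Sham libraries, the log2 fold change of Arntl was 4.06. Clock, its partner, was at 72.2, 57.1 and 60.2 CPM in Sham and at 104, 103, 110 and 74.2 CPM in NX (log2 0.63, SE 0.15, edgeR adjusted p = 0.141). Npas2, which can stand in for Clock, had overlapping groups (log2 1.23, SE 0.47, and 1.94 without Sham library 1).

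Per2, a repressor of the loop, was at 41.9, 65.3 and 50.6 CPM in Sham and at 18.7, 26.7, 17.6 and 25.3 CPM in NX. All NX values were below all Sham values, and the NX mean was 57.8% lower (log2 -1.25, SE 0.30, edgeR adjusted p = 0.141). Tef, an output transcription factor, was at 137, 190 and 170 CPM in Sham and at 75.4, 82.8, 76.6 and 130 CPM in NX (log2 -0.86, SE 0.26). NX library 4 lay closest to Sham for Tef, as it did for Per1, Per3, Dbp, Clock, Arntl and Bhlhe41. Dbp, another output factor, was at 128, 152 and 152 CPM in Sham and at 12.8, 48.3, 32.8 and 105 CPM in NX (log2 -1.54, SE 0.86, edgeR adjusted p = 0.323), and without NX library 4 the log2 fold change of Dbp was -2.17. Per3 (log2 -1.24, SE 0.64), Bhlhe41, a transcriptional repressor (-1.01, SE 0.39), Per1 (-1.08, SE 0.43) and Cry2 (-0.49, SE 0.15) were on the same side, with overlap in Per1 and Cry2. Nr1d1 (REV-ERB alpha), a repressor of Arntl, was at 128, 88.1 and 104 CPM in Sham and at 45.3, 133, 100 and 140 CPM in NX. NX library 1 lay below the Sham range, library 3 within it and libraries 2 and 4 above it (log2 -0.02, SE 0.64).

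Over the list of 30 measured clock genes, 3 lay wholly above Sham (Arntl, Clock and Rora) and 7 wholly below, against 6.92% and 8.94% of all genes. DESeq2 called Arntl and Clock as higher and Per2 and Tef as lower, edgeR called none with all libraries or without NX library 1 and called Clock without NX library 4 (adjusted p = 0.0463), and the median log2 fold change was -0.04 against -0.01 over all genes. The authors' deposited table gave adjusted p values of 0.029 for Arntl, 0.0139 for Clock, 4.18e-06 for Per2 and 0.00837 for Tef. The labels do not state the hour at which hearts were collected.

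**Figure D3:**
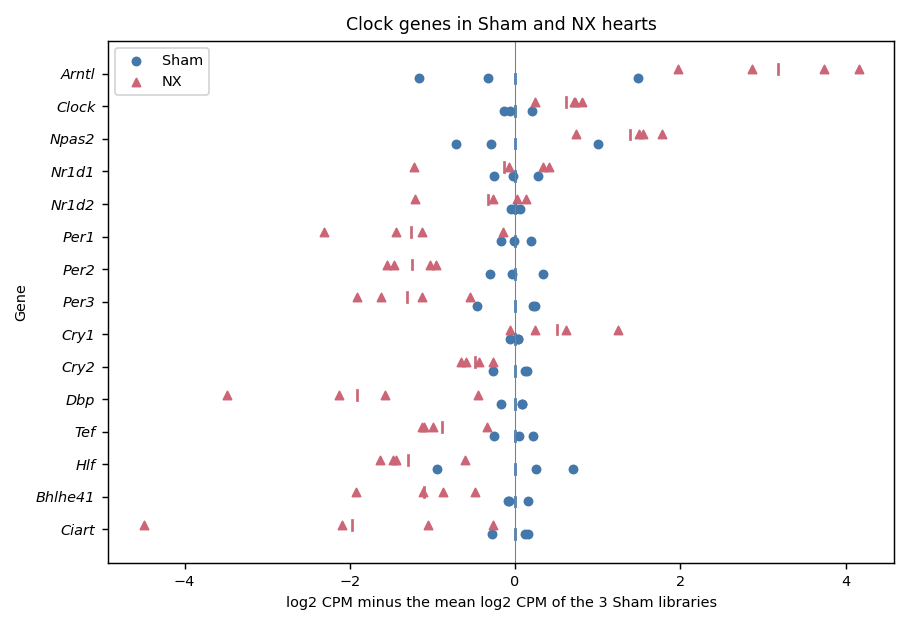
Each point is a library's log2 CPM of a clock gene minus the mean log2 CPM of the 3 Sham libraries, with circles for Sham, triangles for NX and bars for group means. Arntl and Clock lie to the right in NX and Per2, Per3, Dbp, Tef and Bhlhe41 to the left, while Nr1d1 spans the Sham values.

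Markers of a loaded ventricle did not separate the groups. Nppa, which encodes atrial natriuretic peptide, was at 79.5, 64.1 and 102 CPM in Sham and at 58.9, 78.2, 185 and 203 CPM in NX. NX libraries 3 and 4 were high and libraries 1 and 2 within or below the Sham range (log2 0.68, SE 0.64, edgeR adjusted p = 0.556). Nppb, which encodes B-type natriuretic peptide, was at 118, 83.1 and 56.8 CPM in Sham and at 81.4, 152, 133 and 210 CPM in NX. Of the NX libraries, number 1 alone lay within the Sham range (log2 0.74, SE 0.36, edgeR adjusted p = 0.263). None of the 8 measured genes of natriuretic peptides, their processing and receptors lay wholly outside Sham. Over all genes 6.92% lay wholly above and 8.94% wholly below. Corin, the protease that cuts the Nppa product, and the clearance receptor Npr3 were at -0.25 (SE 0.13) and -0.40 (SE 0.33).

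Acta1, skeletal alpha-actin and a fetal gene of the heart, was at 307, 364 and 622 CPM in Sham and at 352, 785, 1140 and 850 CPM in NX (log2 0.86, SE 0.45, edgeR adjusted p = 0.294). NX library 1 was again within the Sham range. Ankrd1, a stretch-responsive protein of the sarcomere, was at 2130 to 2490 CPM in Sham, at 3970 and 4500 CPM in NX libraries 2 and 3 and at 2260 CPM in NX libraries 1 and 4. Myh6 and Myh7, the fast and slow myosin heavy chains, were at 0.07 (SE 0.14) and -0.07 (SE 0.28), and the sign of each depended on single libraries. Of the 35 measured hypertrophy genes 1 lay wholly above Sham (2.86%) and 0 wholly below, against 6.92% and 8.94% of all genes. The 1 gene above was Igf1, a growth factor (log2 0.44, SE 0.17).

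The cardiac transcription factor Nkx2-5 was at 97.5, 96.6 and 87.7 CPM in Sham and at 80.7, 30.6, 30.7 and 64.5 CPM in NX. It lay below Sham in all NX libraries, far below in libraries 2 and 3 (log2 -0.88, SE 0.31, edgeR adjusted p = 0.185). Tnni3, cardiac troponin I (log2 -0.39, SE 0.13), and the ventricular light chain Myl3 (-0.25, SE 0.10) were lower and Tpm1, alpha-tropomyosin, was higher (0.26, SE 0.11). Synpo2l, an actin-bundling protein of the Z disc, was at -0.59 (SE 0.17) and was the sarcomere gene that DESeq2 called. Of 25 measured sarcomere genes 0 lay wholly above and 2 wholly below Sham (8%), against 6.92% and 8.94% of all genes.

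Several adrenergic receptors averaged lower in NX hearts. Adra1d, the alpha-1D receptor, was at 16.5, 13.7 and 12.1 CPM in Sham and at 7.92, 8.21, 5.71 and 5.96 CPM in NX. The groups did not overlap, and the NX mean was 50.6% lower (log2 -1.02, SE 0.23, edgeR adjusted p = 0.141). Adrb1, the main beta receptor of heart muscle, was at 22.7, 18.0 and 19.3 CPM in Sham and at 15.8, 9.98, 9.88 and 12.6 CPM in NX. It too was lower in every NX library (log2 -0.75, SE 0.19, edgeR adjusted p = 0.143), and so was Adra1b, the alpha-1B receptor (log2 -0.71, SE 0.24). Of 25 measured genes of adrenergic and muscarinic signalling 1 lay wholly above (4%) and 5 wholly below Sham (20%), against 6.92% and 8.94% of all genes, including Gnai2, an inhibitory G protein subunit (log2 -0.21, SE 0.08). DESeq2 called Adra1d and Adrb1, as did edgeR without NX library 1 (adjusted p = 0.0434 and 0.0364). When any other single Sham or NX library was left out, edgeR called neither. These receptors were named for their small p in the same libraries, so those calls are no independent support. The median over the list was 0.06, on the other side from these receptors. The median length of the list was 2493 bases.

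Genes of calcium handling and ion channels had no common direction. Of 39 measured genes 17 were higher and 22 lower, and the median log2 fold change was -0.01, as over all genes. In the list 1 gene lay wholly above (2.56%) and 4 wholly below Sham (10.3%), against 6.92% and 8.94% of all genes. Scn4b, a beta subunit of sodium channels, was at 201, 199 and 136 CPM in Sham and at 142, 89.3, 92.6 and 124 CPM in NX. Scn4b overlapped between NX library 1 and Sham library 3 (log2 -0.68, SE 0.18, edgeR adjusted p = 0.151). Kcnh2, the hERG potassium channel (log2 -0.56, SE 0.18), and Jph2, which ties the cell membrane to the calcium store (-0.39, SE 0.13), averaged lower with overlap.

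Most matrix genes had a positive fold change, and none was called. Lama2, a laminin chain of the muscle basement membrane, was at 292, 357 and 360 CPM in Sham and at 391, 517, 554 and 477 CPM in NX. All NX values were higher (log2 0.53, SE 0.13, edgeR adjusted p = 0.141), with NX library 1 nearest to Sham. Nid1, which links laminin to collagen IV, was at 210, 213 and 206 CPM in Sham and at 281, 243, 319 and 273 CPM in NX (log2 0.41, SE 0.12, edgeR adjusted p = 0.152). Tnc (tenascin C) and Cilp, matrix proteins of remodelling, were at 1.13 (SE 0.44) and 0.97 (SE 0.37) from Sham values of at most 0.896 and 4.07 CPM.

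The fibrillar collagens overlapped with Sham. Col1a1 was at 378, 301 and 279 CPM in Sham and at 284, 426, 492 and 551 CPM in NX (log2 0.46, SE 0.22, edgeR adjusted p = 0.258). Col3a1 was at 841, 536 and 567 CPM in Sham and at 540, 740, 923 and 1050 CPM in NX (log2 0.33, SE 0.26). In both, NX library 1 sat among the Sham values and NX library 4 was highest. Postn, periostin of activated fibroblasts, was at 34.0 CPM in NX library 3 and at 4.27 to 12.2 CPM in the other NX libraries, against 4.66 to 8.96 CPM in Sham. Lox, which crosslinks collagen, was higher in all NX libraries, at 8.47, 10.0 and 8.25 CPM in Sham and at 11.8, 16.5, 15.9 and 17.3 CPM in NX, while Timp2, an inhibitor of matrix proteases, was lower in all (log2 -0.40, SE 0.13). Timp1 had a log2 fold change of 0.04 (SE 0.18).

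Of 41 measured collagens and matrix proteins 31 had a positive fold change, 7 lay wholly above (17.1%) and 0 wholly below Sham, against 6.92% and 8.94% of all genes, and DESeq2 called Lama2 and Nid1. Their median log2 fold change was 0.27 against -0.01 over all genes and 0.21 with the length trend removed, and their median length was 4765 bases against 2409 over all genes. Fibroblast markers summed to 3100 to 3360 CPM over 22 genes in Sham and to 3570, 3490, 3740 and 3530 CPM in NX libraries 1 to 4, so every NX sum was above every Sham sum. Abundant genes weigh most in such a sum. Of the 22 genes 13 were higher and 9 lower, with a median log2 fold change of 0.08. Wholly above Sham lay 2 of them (9.09%) and wholly below 0, so the share above was near that of all genes. In bulk heart RNA more cells of a type and more RNA per cell cannot be told apart.

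**Figure D4:**
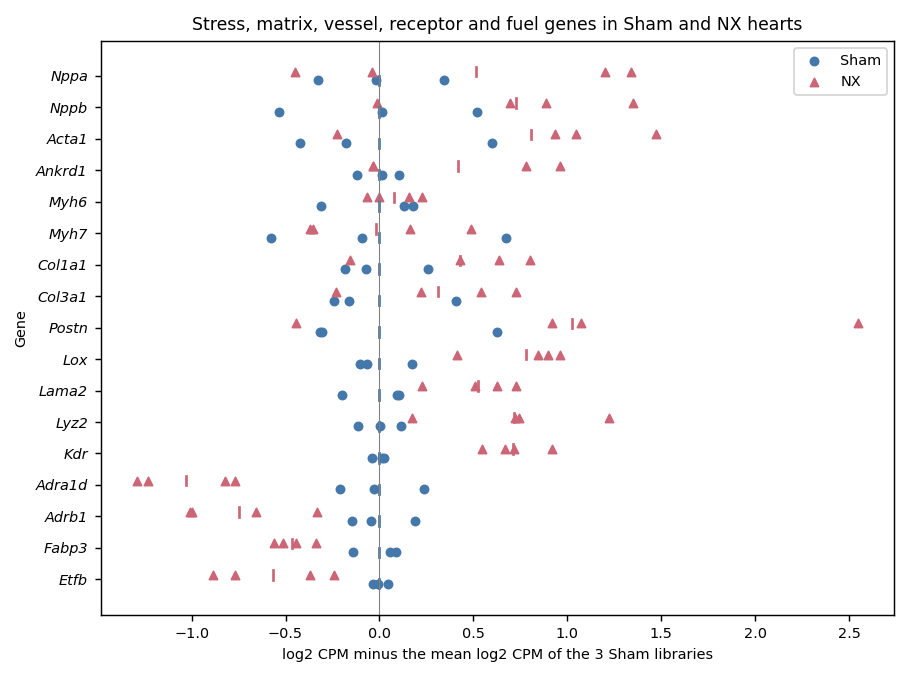
Each point is a library's log2 CPM minus the mean log2 CPM of the 3 Sham libraries, with circles for Sham, triangles for NX and bars for group means. Nppa, Nppb, Acta1, Ankrd1, Col1a1, Col3a1 and Postn have NX points on both sides of or among the Sham points, whereas Kdr, Lox, Lama2 and Lyz2 lie wholly to the right and Adra1d, Adrb1, Fabp3 and Etfb wholly to the left.

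Among vessel genes, Kdr, the main receptor for VEGF on endothelium, was at 130, 124 and 129 CPM in Sham and at 210, 203, 241 and 186 CPM in NX. The lowest NX value was far above the narrow Sham range, but edgeR did not call Kdr (log2 0.72, SE 0.17, adjusted p = 0.141, and 0.0513 without NX library 1). DESeq2 called it, and its adjusted p in the authors' deposited table was 1.46e-06. Ptprb, an endothelial tyrosine phosphatase, was at 205, 273 and 219 CPM in Sham and at 311, 311, 379 and 305 CPM in NX (log2 0.49, SE 0.12, edgeR adjusted p = 0.141). Emcn (endomucin) and Cav1 (caveolin 1) were at 0.40 (SE 0.12) and 0.32 (SE 0.12). Of 52 measured endothelial and VEGF pathway genes 8 lay wholly above (15.4%) and 1 wholly below Sham (1.92%), against 6.92% and 8.94% of all genes, while 29 were higher and 23 lower. The list summed to 4700 to 5180 CPM in Sham and to 4820 to 5480 CPM in NX, with overlap. Smooth muscle and pericyte markers summed to 3470 to 3670 CPM in Sham and to 3690 to 4140 CPM in NX, so the lowest NX sum was just above the highest Sham sum. Of 17 measured members 2 lay wholly above (11.8%) and 0 wholly below Sham. Their median log2 fold change was 0.11, and -0.05 without NX library 4. Abcc9, a pericyte and muscle potassium channel subunit, was at 0.27 (SE 0.10).

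Most genes of the cell cycle had a positive fold change, and none was called. Mki67, a marker of dividing cells, was at 3.01, 4.76 and 3.72 CPM in Sham and at 16.5, 6.91, 7.36 and 6.54 CPM in NX. NX library 1, which lay near Sham for collagens and natriuretic peptides, was the highest here (log2 1.26, SE 0.43, edgeR adjusted p = 0.178). Kif11, a motor of the mitotic spindle, had at most 0.733 CPM in Sham and 1.15 to 2.29 CPM in NX (log2 1.60, SE 0.47), and Cenpf, a kinetochore protein, was at 1.63 (SE 0.56). Ccnd2 (cyclin D2) was at 145, 166 and 155 CPM in Sham and at 175, 265, 217 and 227 CPM in NX (log2 0.51, SE 0.15, edgeR adjusted p = 0.152). Of 46 measured genes 35 were higher and 11 lower, and 7 lay wholly above (15.2%) and 0 wholly below Sham, against 6.92% and 8.94% of all genes. The median was 0.30, also with the length trend removed, and the median length 3274 bases. DESeq2 called Mki67, Ccnd2 and Cenpf.

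Immune genes showed few separated members. Lyz2, the lysozyme of macrophages, was at 48.6, 52.7 and 57.1 CPM in Sham and at 59.3, 87.0, 88.3 and 123 CPM in NX, with NX library 1 just above Sham. Mrc1, a receptor of resident macrophages, was at 0.35 (SE 0.13) and Cd14, a coreceptor for lipopolysaccharide, at -0.64 (SE 0.23). Macrophage markers summed to 1260 to 1300 CPM in Sham and to 1210, 1250, 1280 and 1500 CPM in NX, so only NX library 4 was above Sham. Of 31 macrophage markers 2 lay wholly above (6.45%) and 1 wholly below (3.23%), against 6.92% and 8.94% of all genes. C3, the central complement protein, was at 21.0 CPM in NX library 4 and at 1.14 to 3.46 CPM in the other 6 libraries. Its log2 fold change of 2.35 became 0.82 without NX library 4. Rsad2, an antiviral gene induced by interferon, was at 8.47, 8.80 and 7.63 CPM in Sham and at 11.0, 15.9, 16.0 and 15.1 CPM in NX (log2 0.81, SE 0.25, edgeR adjusted p = 0.154). Of 54 interferon-stimulated genes it alone lay wholly above Sham (1.85%) and 0 lay wholly below, under the shares of all genes. In that list 39 genes were higher, and the median was 0.21.

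Genes of fatty acid use had no common direction, with 22 higher and 26 lower of 48 measured. Fabp3, the fatty acid binding protein of heart muscle, was at 2810, 2740 and 2390 CPM in Sham and at 2090, 1940, 1790 and 1850 CPM in NX. All NX values were lower (log2 -0.47, SE 0.13, edgeR adjusted p = 0.152). Etfb, which carries electrons from fatty acid oxidation, was at 297, 281 and 287 CPM in Sham and at 244, 156, 169 and 223 CPM in NX. NX libraries 2 and 3 were lowest (log2 -0.55, SE 0.13, edgeR adjusted p = 0.141). Mlycd, which degrades malonyl-CoA, was at -0.36 (SE 0.10), whereas Ppargc1a, a coactivator of mitochondrial genes, was higher in all NX libraries (0.42, SE 0.11).

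Of 48 measured genes of fatty acid oxidation and PPAR targets 2 lay wholly above (4.17%) and 10 wholly below Sham (20.8%), against 6.92% and 8.94% of all genes. Their summed level overlapped, at 20600 to 22500 CPM in Sham and 19900 to 22200 CPM in NX. DESeq2 called Ppargc1a as higher and Etfb, Fabp3, Mlycd and Ucp2, an uncoupling protein, as lower, while the list's median was -0.02, or 0.02 with the length trend removed and 0.05 without Sham library 2, and its median length 2092 bases. Pdk4 and Ucp3, both targets of PPAR alpha, overlapped with Sham (log2 0.47, SE 0.35 and 0.88, SE 0.55). Of 42 nuclear subunits of oxidative phosphorylation 6 lay wholly above (14.3%) and 10 wholly below (23.8%), with a median of -0.04, or 0.05 with the length trend removed, and a median length of 980.5 bases. Ndufa6, a short subunit of complex I, was at -0.37 (SE 0.12), and Uqcrc2, a core subunit of complex III, was at 859, 864 and 868 CPM in Sham and at 993, 1070, 1070 and 973 CPM in NX (log2 0.25, SE 0.08).

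In glycolysis, the liver and platelet forms of phosphofructokinase differed in direction. Pfkl was at 70.4, 74.9 and 60.4 CPM in Sham and at 51.7, 42.3, 47.3 and 58.5 CPM in NX (log2 -0.46, SE 0.13). Pfkp was at 22.5, 24.7 and 22.9 CPM in Sham and at 28.3, 36.9, 38.7 and 32.9 CPM in NX (log2 0.56, SE 0.16). Both had groups that did not overlap and an edgeR adjusted p of 0.152.

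Genes of endoplasmic reticulum stress and heat shock lay on both sides of Sham. Atf4, the transcription factor of the integrated stress response, was at 79.0, 79.2 and 81.6 CPM in Sham and at 108, 104, 93.4 and 94.1 CPM in NX (log2 0.32, SE 0.08, edgeR adjusted p = 0.141). Ern1 (IRE1), a sensor of unfolded proteins, was at 0.40 (SE 0.10). Hspe1, the mitochondrial chaperonin HSP10, was at 73.8, 68.5 and 70.1 CPM in Sham and at 58.4, 50.9, 55.9 and 51.9 CPM in NX (log2 -0.38, SE 0.08, edgeR adjusted p = 0.141). Of 35 measured genes 4 lay wholly above (11.4%) and 3 wholly below (8.57%), against 6.92% and 8.94% of all genes. Kdm3a, a histone demethylase induced by hypoxia, was at 0.35 (SE 0.10), and 4 of 25 hypoxia genes lay wholly above (16%) and 1 wholly below (4%). Among 27 immediate early genes 0 lay wholly above and 3 wholly below (11.1%, near the share of all genes), among them Maff (log2 -0.72, SE 0.20) and Arc (-1.39, SE 0.46), with a median of -0.17.

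Hormone genes linked to kidney disease were examined last. Pth1r, the receptor for parathyroid hormone, was at 9.53, 8.38 and 13.9 CPM in Sham and at 7.92, 3.93, 3.79 and 4.52 CPM in NX. NX library 1 lay just under the lowest Sham value and the other NX libraries far under it (log2 -1.11, SE 0.25, edgeR adjusted p = 0.141, and 0.0215 without NX library 1). Without NX library 2, NX library 3 or any single Sham library, edgeR called no gene at all. Fkbp5, a target of the glucocorticoid receptor, was at 26.0, 39.3 and 25.4 CPM in Sham and at 50.5, 47.6, 53.6 and 37.4 CPM in NX, with NX library 4 under Sham library 2 (log2 0.65, SE 0.16). Ace, Agtr1a and the mineralocorticoid receptor Nr3c2 overlapped with Sham (log2 0.32, -0.33 and -0.26, with SE 0.26, 0.28 and 0.14). Kl (klotho) and the FGF23 receptor Fgfr4 were under the count filter, with at most 14 and 15 counts in any of the 7 libraries.

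**Figure D5:**
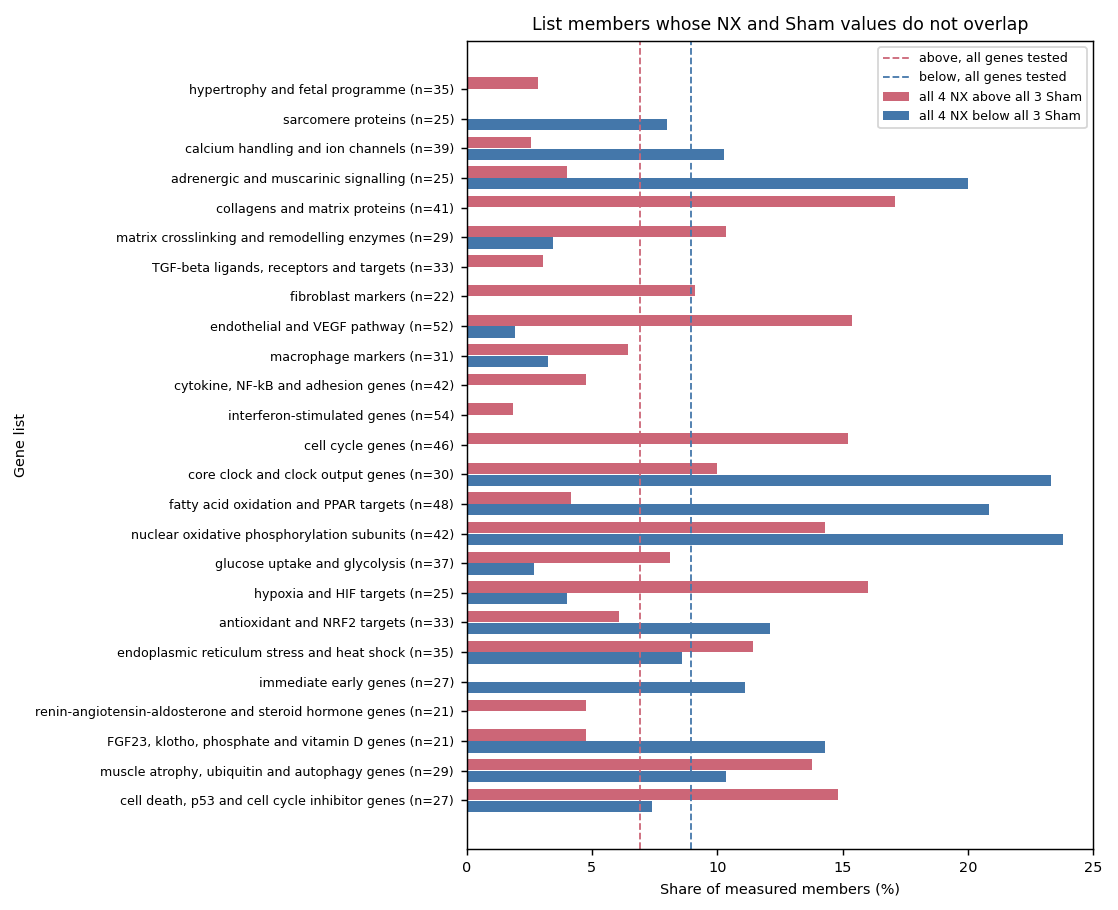
For each gene list with at least 20 measured members, bars give the share of members with all 4 NX libraries above (red) or below (blue) all 3 Sham libraries, and dashed lines give the same shares over all genes tested, 6.92% and 8.94%. The longest red bars belong to matrix, hypoxia, vessel and cell cycle genes, and the longest blue bars to oxidative phosphorylation, clock, fatty acid and adrenergic genes.

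Whether nephrectomy was followed by unequal changes in the 2 organs was tested by an interaction term in a fit over the 23 libraries, written here as heart minus kidney. Hearts and kidneys are not matched to animals in the labels, so the fit took the 23 libraries as independent, which may not hold. Of 15222 genes 24 (0.158%) differed, 12 in each direction. The heart values given here come from the fit of the heart libraries alone. Kidney values and differences come from the fit over the 23 libraries, so the values need not add up exactly. Ubtd1 was at -1.03 in heart and 0.08 (SE 0.12) in kidney, a difference of -1.08 (SE 0.17, edgeR adjusted p = 0.0328). Adra1d was at -1.02 in heart and 1.81 (SE 0.44) in kidney, a difference of -2.79 (SE 0.56, edgeR adjusted p = 0.046). Plxna2, a semaphorin receptor, was at 0.41 (SE 0.10) in heart and -0.41 (SE 0.10) in kidney, a difference of 0.85 (SE 0.15, edgeR adjusted p = 0.0328). No difference was called when NX heart library 2, NX heart library 3 or any 1 of the 3 Sham heart libraries was left out, whereas 452 were called without NX heart library 1 and 325 without NX heart library 4.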

How the data were processed

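Poly(A)-selected RNA of heart samples was sequenced. The authors deposited whole-number read counts per gene, per the file headers, while the submitters' processing notes list the tools STAR 2.5.2b, Subread 1.5.2, featureCounts and Trimmomatic 0.36. No source used here gives the genome build, annotation or strand setting, so values of overlapping genes on either strand are uncertain. The authors' deposited table for NX and Sham hearts holds log2 fold changes, p-values and adjusted p-values, and a normalised signal per library that equals count over 1 factor per library (largest relative departure 5.1e-15 over 87720 values in 7 libraries). Its statistical tool was not given in the sources used here. Symbols come from the authors' tables (15123 of 32552 identifiers).

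The 11 heart libraries were fitted together in edgeR 4.0.16 (R 4.3.3) with filterByExpr, TMM and robust quasi-likelihood F tests, and NX was contrasted with Sham. The SE is the log2 fold change over the square root of F. Alternatives were DESeq2 1.42.0, voom in limma 3.58.1, other scaling and filtering, covariates, a replicate block, leaving out each library and, added after the data were seen, removal of a length trend. The fit was tested on simulated data. Replicates differed by more than sampling noise (the lowest chi-square over its degrees of freedom was 6.5), and all were kept as separate samples. The labels do not say that the samples came from separate animals beyond calling them biological replicates.

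Genes were named by rule: the 12 smallest p in each direction with a mean of at least 1 CPM and a proper symbol, a set of cardiac genes always given, and up to 4 genes of smallest p per list of the 39 lists. Npas2, Per3, Bhlhe41, Rora, Mki67, Myl7, Plxna2, Tnnt2 and the marker genes at low counts were named outside it after values were seen. Members and lists were chosen with earlier results of these data known. A few genes that the rule names are not reported here.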

Additional observations from a re-analysis of the deposited data

Results flagged for a closer look

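Fitted with edgeR over both organs, the NX effect differed between heart and kidney for Tcp11l2 (heart minus kidney log2 difference 0.89), Plxna2 (0.85), Il33, an alarm cytokine (1.57), Ubtd1 (-1.08), Ppp1r14b (-0.77), Phlda3 (-1.05), Fam78a (-1.69) and Adra1d (-2.79), each at an adjusted p below the threshold of 0.05.

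Single NX libraries stood far from the other 3 by Dixon's 95% criterion for 7 of the 105 genes followed because the text names them. NX library 4 was high for Fam78a (20.7 CPM), C3 (21.0 CPM) and Tef (130 CPM), NX library 3 for Ptprb (379 CPM) and Emcn (44.5 CPM), NX library 1 for Mki67 (16.5 CPM) and NX library 2 for Plxna2 (66.3 CPM). Chance alone marks about 1 in 20 such groups of 4.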

How the results depend on the processing

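The count of called genes was 0 in the chosen fit. It was also 0 with DESeq2 size factors, with only the NX and Sham libraries, with the small RNA index as covariate and with the length trend removed. It was 4 without a count filter, 2 with log2 total count as covariate, 344 with DESeq2, 2270 with limma voom and quality weights, and 0 to 538 when 1 library was left out. With the replicate block it was 61. Genes with an unadjusted p below 0.05 in edgeR fell from 2662 in the chosen fit to 1234 with the small RNA index as covariate. They numbered 2102 with log2 total count as covariate and 2516 with the length trend removed. Same-numbered NX and Sham libraries had correlations of -0.07, -0.01 and -0.02 in their deviations. With so few libraries these values cannot settle whether the numbers pair the samples, and the labels do not say.

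For list members the count was 0, but 35 with DESeq2 and 0 to 36 when 1 library was left out, the 36 without NX library 1. Over all genes tested those 2 fits called 2.69% and 4.13%. The member counts were not set against these shares, so they show nothing particular to the lists. For the heart minus kidney difference the count was 24, but 86 with the replicate block and 0 to 452 when 1 heart library was left out. The cause was not tested.

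Signs turned for genes near 0 and for Myl7, whose log2 fold change in the authors' deposited table was -1.31. Myh6 was at 0.00 with voom, at -0.01 with the length trend removed and ran from -0.07 to 0.17 when 1 library was left out. Myh7 was at 0.05 with voom and ran from -0.29 to 0.36 when 1 library was left out. Tnnt2 was at 0.01, at -0.04 with the small RNA index as covariate and from -0.02 to 0.08 when 1 library was left out. Over the same omissions Timp1 ran from -0.06 to 0.13, Nr1d1 from -0.19 to 0.22 and Myl7 from -1.87 to 0.93, with the positive value of Myl7 from the fit that lacked Sham library 1. Depth limits the reading of genes near 1 CPM, such as Kif11 and Tnc, and genes under the count filter were not tested. List medians moved beyond the spread of NX libraries in 33 of 429 recalculations.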
